A study of Arabidopsis thaliana with 12 samples.

Results

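The 100 genes described here had lower transcript levels after flg22 in every one of 6 pairs of Arabidopsis thaliana libraries. They were taken from 33197 gene identifiers in a deposited table of FPKM, read fragments corrected for the length of a transcript and the size of its library. Of these, 14868 had a mean of at least 5 FPKM over the 6 libraries without flg22, and 2003 of those (13.5%) had a difference in log2(FPKM + 1), flg22 minus none, below 0 in all 6 pairs. The 2003 were ranked by the mean of the 6 differences, and the 100 most negative were kept. The genes were thus chosen by their measured FPKM with and without flg22, and those values are given as a description. Counts from a fit of that same contrast are printed beside the share or number of all genes called, and nothing is read from them.

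Whole seedlings, 10 days old, were of 3 genotypes: wild type (WT) of the accession Col-0, the mutant asr3-1, and OX9, 1 line in which the 35S promoter, active in most plant tissues, drives ASR3 with an HA tag. Seedlings stood overnight in water and then received flg22 or none (CK) for 30 min, at a dose that one part of the submitters' text gives as 100 nM and another as 100 mM. The 6 groups are WT, asr3-1 and OX9, each without and with flg22, and each has 2 libraries, from repeat 1 and repeat 2 of the experiment. Each library pools RNA of 2 biological replicates, so p-values here measure the spread between pools. In tests between the repeats that spread is among the genotypes within the same 2 experiments. Those p-values do not measure how far experiments vary.

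flg22 is a peptide of bacterial flagellin that plant cells perceive through the receptor kinase FLS2. Perception starts calcium influx, an oxidative burst and MAP kinase signalling, and transcript levels change soon after. Seedlings under immune activation are known to grow less, and transcripts for growth, light responses and chloroplast development are often found among those that decline. ASR3 is a trihelix transcription factor described as a repressor of immune genes.

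ASR3 (AT2G33550), the gene that the genotypes alter, stood at 7.91 ± 2.37 FPKM (SD, n = 2) in WT without flg22, at 4.54 ± 2.88 in asr3-1 and at 556 ± 48.8 in OX9. With flg22 it was at 7.44 ± 1.55, 2.99 ± 0.65 and 484 ± 142. OX9 exceeded WT by 5.99 (SE 0.39, limma adjusted p = 0.00545) on the log2 scale without flg22, while asr3-1 did not differ past the test. The 10 markers of green tissue together held 47008.7 to 63874.5 FPKM without and 40377.4 to 56368.6 with flg22. Of the 9 root markers found, all reached 1 FPKM, with sums of 147.9 to 215.3, the 4 guard cell markers summed to 41.1 to 54.3, and the pollen markers were at 0 to 0.4. Levels of a whole seedling cannot tell fewer cells of a type from less RNA per cell. The metallothionein transcript MT1A made up 1.46 to 1.78% of all FPKM in repeat 1, but 10.17 to 16.07% in repeat 2, a difference whose part in the results was not tested. The spacing of the lowest values put the depth at about 6400000 to 11500000 reads per library, an estimate that entered no test. On that scale 17 of the 99 lowered genes with an annotated length had a mean under 100 reads without flg22.

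The members are mostly coding genes: 95 encode proteins, 2 are microRNA precursors, 2 are long noncoding RNAs and 1 (AT3G22968) has no entry in the annotation used. A symbol of their own is known for 45, while 55 go by locus number and 21 of the 100 are annotated as uncharacterized, hypothetical or other RNA. The median level without flg22 was 31.2 FPKM, against 18.3 over all genes at the level filter. The mean change of the 100 ran from -1.47 to -0.70 with a median of -0.80. In the 6 pairs the members' median change was -0.50 in WT, -0.54 in asr3-1 and -0.43 in OX9 in repeat 1, and -1.09, -1.19 and -1.21 in repeat 2. The median over all genes at the level filter lay between -0.05 and 0.00 in the same pairs. A change of -1 or lower was reached by 9, 9 and 10 members in the pairs of repeat 1 and by 62, 67 and 65 in those of repeat 2. Of the genes at the level filter 0.46, 0.87 and 0.75% reached it in repeat 1 and 1.53, 1.76 and 1.92% in repeat 2.

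**Figure D1:**
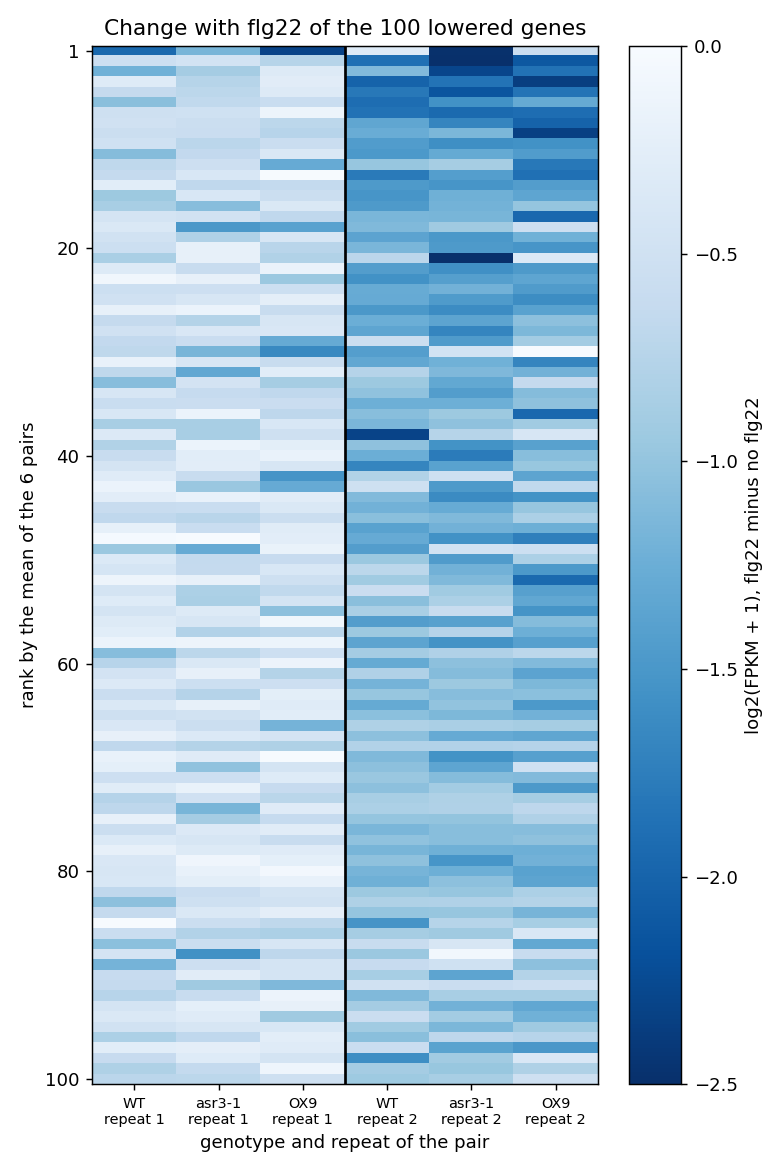
Change with flg22, in log2(FPKM + 1), of each of the 100 genes (rows, by rank) in the 6 pairs (columns, repeat 1 left of the line and repeat 2 right). All values are at or below 0 by the rule, and the columns of repeat 2 are darker, with medians of -1.09 to -1.21 against -0.43 to -0.54.

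The rule looks at pairs, and a gene can be lower in each pair while its levels overlap between libraries. All 6 libraries with flg22 were below all 6 without in 35 of the members and in 1.7% of the genes at the level filter. At the edge of the list the changes ran on without a gap. AT2G21210 (a SAUR-like gene), MYB28 and AT3G61950, ranks 98 to 100, had -0.71, -0.70 and -0.70, and CDF1, AT1G11175 and LGO, the next ranks, each had -0.70. When limma pooled the genotypes over all 12 libraries, 19 of the 100 passed at an adjusted p under 0.05, beside 0.265% of all 20753 genes called lower and 3.83% higher. Leaving out 1 library at a time moved the 19 to between 2 and 29, with 0.0193 to 0.4% of all genes called lower. Within a genotype 0 members passed, while 0.101%, 0.193% and 0.0% of all genes were called higher in WT, asr3-1 and OX9 and 0.0% lower. At an unadjusted p under 0.05 the members numbered 24, 33 and 23, beside 1407, 1631 and 949 of all 20753 genes in either direction. With the repeat as a block 81 passed in the pooled comparison, where 5.69% of all genes were called lower. Within a genotype that fit called 3 members in WT, 8 in asr3-1 and 0 in OX9, beside 0.0434%, 0.222% and 0.0% of all genes called lower. All these counts use the contrast that chose the genes.

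Roles were assigned by hand from the annotation after the members were known, and 15 genes act in responses to light or in the greening of leaves. Their median change was -0.86. Among them are transcription factors with B-box zinc fingers, which act in photomorphogenesis, and CONSTANS-like factors of the same family. In each list of 3 values the order is WT, asr3-1 and OX9. BBX14 (AT1G68520, chr1:25708175-25710989, - strand) was at 126, 118 and 115 FPKM without and 87.7, 82.9 and 105 with flg22 in repeat 1, and at 70.1, 59.2 and 65.7 without and 18.6, 14.7 and 16.8 with it in repeat 2. Its level without flg22 was higher in repeat 1, and all 3 repeat 2 libraries with flg22 lay far below every other library. BBX15, a close relative, was at 117, 109 and 112 FPKM without and 76.9, 90.2 and 99.1 with flg22 in repeat 1, and at 95.2, 110.3 and 99.6 without and 39.5, 31.7 and 46.9 with it in repeat 2. COL1, a CONSTANS-like factor, was at 60.6, 63.9 and 54.4 FPKM without and 38.8, 37.02 and 40.7 with flg22 in repeat 1, and at 33.05, 33.7 and 35.4 without and 13.4, 12.6 and 16.8 with it in repeat 2. COL2, its close relative, was at 235, 225 and 196 FPKM without and 130.1, 124 and 150.1 with flg22 in repeat 1, and at 72.5, 65.8 and 74.6 without and 31.9, 31.7 and 39.2 with it in repeat 2. COL2 was therefore lower with flg22 in each pair while every repeat 2 library, with or without flg22, stood below every repeat 1 library.

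**Figure D2:**
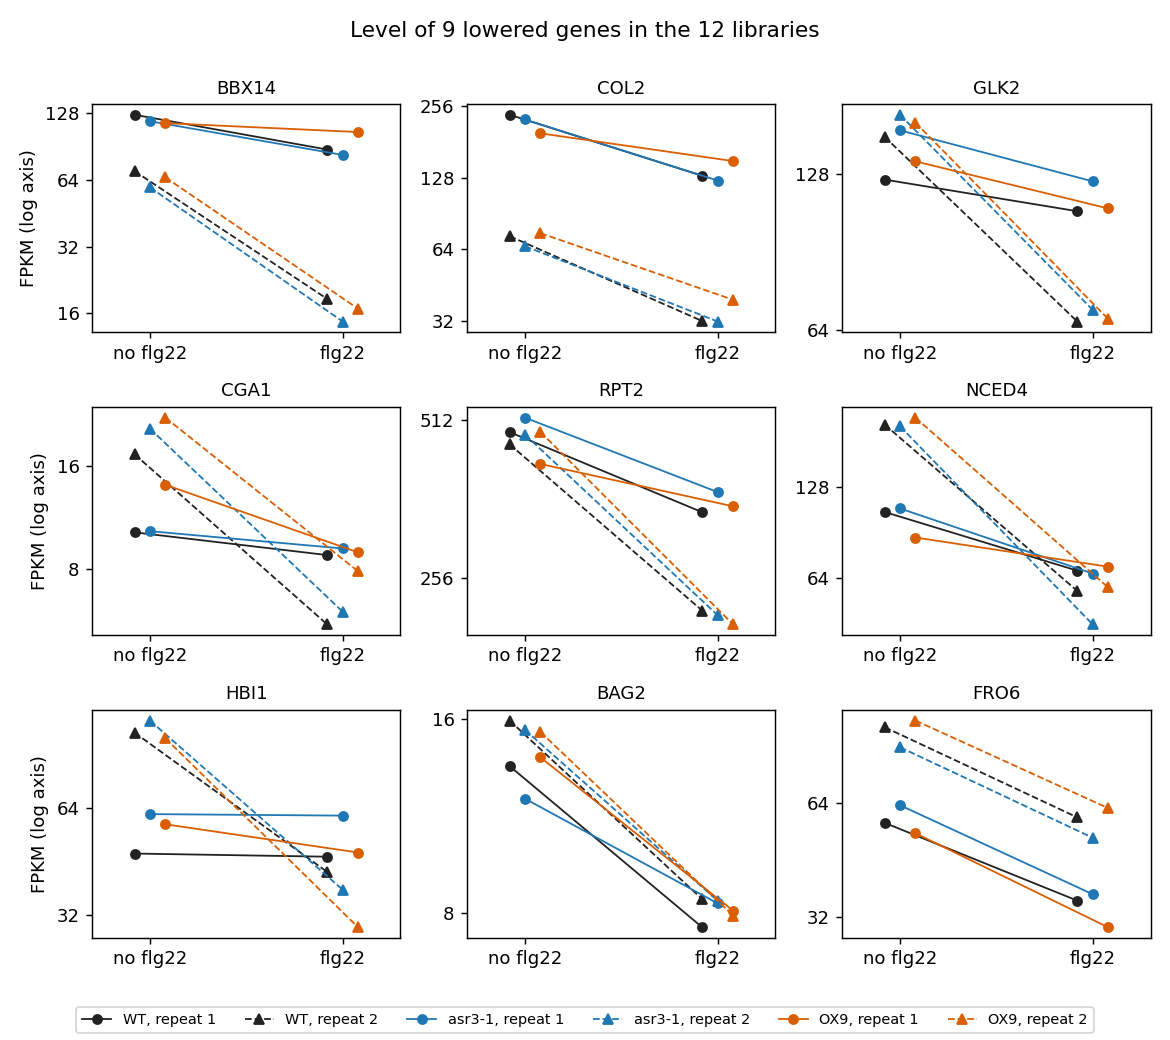
FPKM of 9 lowered genes in the 12 libraries on a log axis, without and with flg22, with lines joining the pair of a genotype (WT black, asr3-1 blue, OX9 orange) and repeat (1 solid with circles, 2 dashed with triangles). The 3 dashed lines drop further than the solid ones for BBX14, GLK2, CGA1, RPT2, NCED4 and HBI1, while BAG2 and FRO6 drop alike in all 6 pairs.

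GLK2 (AT5G44190, chr5:17798262-17800926, + strand), a GOLDEN2-like factor that activates genes of the photosynthetic apparatus, was at 125, 155 and 135 FPKM without and 108, 124 and 109.7 with flg22 in repeat 1, and at 151, 166 and 160.4 without and 66.5, 70.03 and 67.3 with it in repeat 2. CGA1, a GATA factor induced by cytokinin that promotes chloroplast growth, was at 10.3, 10.3 and 14.1 FPKM without and 8.81, 9.21 and 8.97 with flg22 in repeat 1, and at 17.3, 20.6 and 22.2 without and 5.53, 6.02 and 7.896 with it in repeat 2. For both genes all 6 libraries with flg22 stayed below all 6 without. CH1, the enzyme that makes chlorophyll b from chlorophyll a, was at 169, 184 and 182 FPKM without and 122, 138 and 138 with flg22 in repeat 1, and at 163, 170.2 and 165 without and 86.7, 75.99 and 86.6 with it in repeat 2. Its levels also did not overlap between libraries with and without flg22. The photosystem and antenna genes themselves hold no member: 18 of the 60 at the level filter were lower in all 6 pairs, and the median change of the 61 tested was -0.14.

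Phytochrome and phototropin signalling is represented by 5 members. PIL5, also called PIF1, a bHLH factor that represses seed germination and greening in the dark, was at 15.9, 19.3 and 18.7 FPKM without and 10.3, 12.6 and 12.2 with flg22 in repeat 1, and at 24.4, 23.4 and 22.7 without and 9.77, 9.34 and 10.6 with it in repeat 2. PKS1, a phytochrome kinase substrate, was at 16.8, 18.3 and 16.3 FPKM without and 13.8, 15.9 and 13.3 with flg22 in repeat 1, and at 17.2, 17.3 and 16.3 without and 7.42, 4.94 and 4.92 with it in repeat 2. AT1G18810, annotated as a relative of PKS1, was at 14.5, 15.96 and 14.8 FPKM without and 10.5, 13.2 and 10.8 with flg22 in repeat 1, and at 21.5, 22.5 and 19.9 without and 6.06, 8.02 and 9.71 with it in repeat 2. In these 3 genes each repeat 2 pair changed more than the repeat 1 pair of the same genotype. RPT2 (AT2G30520, chr2:13002686-13005746, - strand), an NPH3-family protein needed for phototropism in bright light, is among the 5 most abundant members and was at 485, 517 and 422 FPKM without and 342, 373 and 351 with flg22 in repeat 1, and at 460.1, 480.0 and 486 without and 222, 217 and 209 with it in repeat 2. AT3G50840, another NPH3-family protein, was at 8.499, 8.71 and 7.19 FPKM without and 5.797, 4.597 and 5.22 with flg22 in repeat 1, and at 10.9, 9.52 and 8.18 without and 3.66, 2.75 and 2.95 with it in repeat 2. In all 5 the libraries with flg22 lay below every library without it. The first rank belongs to BNQ3, a small helix-loop-helix protein, at 8.19, 4.66 and 11.3 FPKM without and 1.37, 1.51 and 1.47 with flg22 in repeat 1, and at 5.02, 4.64 and 3.25 without and 3.85, 0 and 1.91 with it in repeat 2. It is a low gene, listed at 0 in 1 library, so its mean change of -1.47 rests on few reads, and its SD over the 6 pairs of 0.92 is among the largest. LSH4, of a family named for light-dependent hypocotyl growth, changed by -0.77 in repeat 1 and -0.79 in repeat 2.

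COL2 and RVE1, a MYB-related factor linked to the circadian clock and auxin, carry sequence motifs of clock and light regulation next to their start. RVE1 was at 31.8, 33.1 and 35.2 FPKM without and 24.5, 28.8 and 28.4 with flg22 in repeat 1, and at 16.2, 13.4 and 18.7 without and 6.06, 6.13 and 6.05 with it in repeat 2. The 250 bases upstream of each start are shown, from RefSeq TAIR10.1, with capitals for a motif found by a search of both strands: the evening element in COL2 (chr3:489468-489717, - strand) and, in RVE1 (chr5:5692993-5693242, - strand), a G-box, CACGTG, that overlaps the ABRE core ACGTGTC.
COL2: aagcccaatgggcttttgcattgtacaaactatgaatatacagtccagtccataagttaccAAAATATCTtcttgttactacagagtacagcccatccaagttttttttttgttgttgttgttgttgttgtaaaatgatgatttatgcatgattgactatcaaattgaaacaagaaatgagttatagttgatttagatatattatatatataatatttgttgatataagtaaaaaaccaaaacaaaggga
RVE1: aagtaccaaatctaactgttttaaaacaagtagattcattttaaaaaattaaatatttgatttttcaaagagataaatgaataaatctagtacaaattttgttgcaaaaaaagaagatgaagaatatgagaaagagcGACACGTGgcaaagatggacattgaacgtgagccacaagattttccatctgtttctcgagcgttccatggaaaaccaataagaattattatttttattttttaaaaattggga
The evening element, AAAATATCT, was found in 1 member promoter, that of COL2. Over the window of 250 bases before to 50 after the start, it was in 1.0% of the 99 member promoters and in 3.0% of those at the level filter.

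Development and growth factors form a second set of 15 genes with a median change of -0.83. AT2G34010, annotated as verprolin, was at 5.898, 5.37 and 4.11 FPKM without and 1.97, 2.47 and 3.103 with flg22 in repeat 1, and at 4.23, 5.19 and 5.33 without and 1.43, 0.268 and 0.747 with it in repeat 2. Its 12 values are small, and the libraries with flg22 lay below all without. OFP16, of the OVATE family of growth repressors, was at 39.5, 40.5 and 35.5 FPKM without and 17.98, 25.4 and 27.4 with flg22 in repeat 1, and at 52.4, 46.4 and 49.1 without and 18.2, 18.5 and 17.4 with it in repeat 2. HB-12, a homeodomain leucine zipper factor induced by water deficit, was at 31.2, 32.9 and 40.8 FPKM without and 25.8, 20.3 and 25.8 with flg22 in repeat 1, and at 30.8, 28.1 and 24.8 without and 10.5, 9.16 and 8.56 with it in repeat 2. ZFP8, a zinc finger factor that acts in trichome formation, was at 31.9, 27.7 and 33.3 FPKM without and 16.1, 20.9 and 22.3 with flg22 in repeat 1, and at 47.5, 37.6 and 67.1 without and 15.9, 15.4 and 25.9 with it in repeat 2. OFP16 and ZFP8 did not overlap between the groups, whereas HB-12 did, through a value of 24.8 FPKM without flg22 in OX9 of repeat 2 and 25.8 with flg22 in WT and OX9 of repeat 1. HBI1 (AT2G18300, chr2:7952404-7954785, - strand), a bHLH factor that promotes cell elongation, was at 47.7, 61.6 and 57.7 FPKM without and 46.8, 61.03 and 48.04 with flg22 in repeat 1, and at 105, 113 and 101 without and 42.4, 37.7 and 29.6 with it in repeat 2. The repeat 1 pairs of HBI1 hardly differed, with changes of -0.03, -0.01 and -0.26, while its repeat 2 pairs changed by -1.28 to -1.73.

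MYB16, a factor of epidermal cell shape and cuticle formation, was at 22.6, 25.4 and 25.3 FPKM without and 14.6, 16.6 and 19.5 with flg22 in repeat 1, and at 32.8, 30.4 and 32.9 without and 13.6, 12.03 and 16.2 with it in repeat 2. MYB28, the main activator of aliphatic glucosinolate synthesis, was at 71.01, 63.1 and 55.7 FPKM without and 39.97, 40.1 and 51.7 with flg22 in repeat 1, and at 84.3, 89.2 and 82.5 without and 45.4, 45.05 and 46.5 with it in repeat 2. Of the 23 aliphatic glucosinolate genes tested, 20 had a pooled change below 0, with a median of -0.20, MYB28 included. EPF1, a secreted peptide that limits stomatal formation, was at 8.78, 12.8 and 11.8 FPKM without and 7.82, 6.13 and 4.25 with flg22 in repeat 1, and at 7.16, 7.94 and 4.01 without and 4.69, 2.24 and 2.17 with it in repeat 2. In all, 17 of 21 stomatal lineage genes tested had a pooled change below 0, with a median of -0.12. Over all 20753 genes tested, 11708 were below 0 and the median was -0.03. CYCP2;1, a P-type cyclin, changed by -0.48 in repeat 1 and -1.09 in repeat 2, and ZPR2, a small leucine zipper inhibitor of HD-ZIP III factors, by -0.61 in repeat 1 and -1.24 in repeat 2. AT3G61950, a bHLH factor at rank 100, changed alike in all pairs, with an SD of 0.17.

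SPL2 (AT5G43270, chr5:17360287-17363880, - strand), a SQUAMOSA promoter binding protein-like factor of the juvenile-to-adult transition, was at 25.7, 23.1 and 22.01 FPKM without and 15.8, 15.2 and 16.1 with flg22 in repeat 1, and at 34.4, 34.1 and 30.4 without and 17.4, 16.8 and 16.7 with it in repeat 2. All its libraries with flg22 were below all without. Plant miR156 and miR157 are known to cleave SPL transcripts, and the precursor of miR157c is itself a member. MIR157c was at 84.1, 99.1 and 61.8 FPKM without and 42.9, 40.3 and 54.8 with flg22 in repeat 1, and at 96.1, 138 and 196 without and 34.95, 99.4 and 135 with it in repeat 2. MIR167d, the precursor of a microRNA of the miR167 family that targets auxin response factors, was at 3.09, 3.98 and 3.71 FPKM without and 2.39, 3.23 and 2.84 with flg22 in repeat 1, and at 10.7, 13.3 and 9.61 without and 6.901, 4.55 and 2.76 with it in repeat 2. By the estimated depth, MIR157c rests on about 202 reads and MIR167d on about 26 in a library without flg22, and the mature microRNAs were not measured. The mature sequences are shown with the seed, bases 2 to 8, in capitals, beside the best ungapped match of miR157c-5p in the SPL2 transcript (chr5:17360757-17360777, - strand), where capitals mark bases that pair with the microRNA.
miR157c-5p: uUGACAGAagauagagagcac
miR157c-3p: gCUCUCUAuacuucugucacc
miR167d: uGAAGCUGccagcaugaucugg
SPL2 site: GTGCTCTCTcTCTTCTGTCAA
The site pairs with 20 of the 21 bases, and the next best position in the transcript pairs with 13. Both RNAs of this pair were lower with flg22, with a mean change of -0.81 for MIR157c and -0.74 for SPL2. Of 45 microRNA precursors tested, 29 had a pooled change below 0, with a median of -0.18, and 2 of the 33 at the level filter are members.

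The metabolic and transport genes, 19 in all, had a median change of -0.81. CYP81D11, a cytochrome P450 induced by xenobiotics and jasmonate, was at 3.95, 5.104 and 3.57 FPKM without and 2.98, 2.62 and 2.76 with flg22 in repeat 1, and at 15.01, 12.6 and 8.19 without and 2.98, 2.77 and 0.7901 with it in repeat 2. NCED4 (AT4G19170, chr4:10481619-10483879, + strand), also called CCD4, a plastid enzyme that cleaves carotenoids, was at 106, 109 and 87.2 FPKM without and 67.9, 66.4 and 69.9 with flg22 in repeat 1, and at 205, 202 and 216 without and 58.2, 45.2 and 59.8 with it in repeat 2. In both genes the repeat 2 libraries without flg22 stood well above those of repeat 1, and the libraries with flg22 lay below all without. SEN1, a gene induced in darkness and senescence, had the second highest mean FPKM of the members without flg22. In repeat 1 it was at 382, 724 and 1201 FPKM without and 310.1, 481 and 412 with flg22. In repeat 2 it was at 1039, 493 and 1042 without and 600.2, 345 and 409 with flg22. Its levels overlapped, since WT of repeat 1 held 382 FPKM without flg22 and 4 libraries with flg22 held more. GA3OX1, which makes active gibberellin, was at 11.7, 8.15 and 8.91 FPKM without and 5.15, 5.44 and 6.16 with flg22 in repeat 1, and at 5.75, 4.79 and 6.99 without and 2.85, 2.32 and 3.699 with it in repeat 2. NIP6;1, a boric acid channel, changed by -0.13 in repeat 1 and -1.43 in repeat 2, GDU4, a glutamine dumper that promotes amino acid export, by -0.57 in repeat 1 and -1.18 in repeat 2, and ACR9, an ACT-domain protein, by -0.45 in repeat 1 and -1.04 in repeat 2.

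FRO6 and FRO7 are ferric reductases, FRO7 of the chloroplast. They lie 706 bases apart in the same orientation on chromosome 5. FRO6 (AT5G49730, chr5:20201037-20204595, - strand) was at 56.7, 63.1 and 53.2 FPKM without and 35.3, 36.7 and 29.96 with flg22 in repeat 1, and at 102, 89.8 and 106 without and 58.6, 51.7 and 61.99 with it in repeat 2. FRO7 (AT5G49740, chr5:20205302-20208777, - strand) was at 18.6, 26.6 and 19.8 FPKM without and 14.7, 17.4 and 17.6 with flg22 in repeat 1, and at 47.8, 48.1 and 64.9 without and 17.1, 15.4 and 22.8 with it in repeat 2. FRO6 had the smallest SD over the 6 pairs of all members, 0.05 around a mean of -0.76, while FRO7 changed by -0.36 in repeat 1 and -1.50 in repeat 2. The pair are similar copies, and no source used here says how reads shared between them were counted, so their levels are uncertain. Of the 27 iron genes at the level filter, these 2 were the only ones lower in all 6 pairs. Their upstream sequences are shown because they resemble each other, with capitals for the G-box CACGTG and for the GATA motif GATAAG on either strand. FRO6 is at chr5:20204596-20204845, - strand and FRO7 at chr5:20208778-20209027, - strand.
FRO6: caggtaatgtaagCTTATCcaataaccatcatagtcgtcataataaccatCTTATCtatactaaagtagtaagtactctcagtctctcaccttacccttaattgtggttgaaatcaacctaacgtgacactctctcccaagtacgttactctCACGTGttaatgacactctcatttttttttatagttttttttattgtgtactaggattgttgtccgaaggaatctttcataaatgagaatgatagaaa
FRO7: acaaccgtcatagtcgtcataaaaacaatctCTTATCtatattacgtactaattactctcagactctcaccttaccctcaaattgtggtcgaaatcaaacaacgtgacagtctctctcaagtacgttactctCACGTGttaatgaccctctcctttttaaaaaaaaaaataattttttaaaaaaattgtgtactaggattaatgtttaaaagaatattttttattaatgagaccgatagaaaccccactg
The 2 sequences share an unbroken run of 29 bases that holds the G-box, which begins 98 bases before the start of FRO6 and 118 before that of FRO7.

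Another neighbouring pair are SQP1, a squalene epoxidase-like enzyme, and AT5G24155, of the same family, 4177 bases apart. SQP1 was at 13.3, 15.2 and 12.4 FPKM without and 11.2, 7.03 and 9.003 with flg22 in repeat 1, and at 18.8, 17.9 and 15.3 without and 8.61, 6.45 and 10.5 with it in repeat 2. AT5G24155 was at 19.6, 10.7 and 19.7 FPKM without and 15.1, 3.19 and 6.95 with flg22 in repeat 1, and at 25.5, 25.8 and 18.5 without and 11.2, 13.2 and 12.5 with it in repeat 2. In repeat 1 the mean change of AT5G24155 was larger than in repeat 2, and that of SQP1 smaller. Another family member, AT4G15765, lies on chromosome 4 and changed by -0.59 in repeat 1 and -0.83 in repeat 2. Reads shared between such relatives could be split between them.

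Cell wall and secreted proteins number 8, with a median change of -0.77. BXL1, a beta-xylosidase of the wall, was at 137, 171 and 231 FPKM without and 85.1, 118 and 94.6 with flg22 in repeat 1, and at 231, 121 and 193 without and 116, 65.8 and 54.7 with it in repeat 2. EXGT-A3, a xyloglucan endotransglucosylase, was at 107, 133 and 139.8 FPKM without and 87.2, 118 and 91.02 with flg22 in repeat 1, and at 121, 93.8 and 121 without and 58.4, 50.1 and 42.8 with it in repeat 2. AGP17, an arabinogalactan protein, was at 37.5, 49.4 and 42.98 FPKM without and 28.6, 33.4 and 18.3 with flg22 in repeat 1, and at 105, 95 and 117 without and 59.6, 52.5 and 63.3 with it in repeat 2. BXL1 did not overlap between the groups, although its lowest value without flg22, 121 FPKM, stood close to its highest with it, 118 FPKM. CSLB03, a cellulose synthase-like protein, changed by -0.64 in repeat 1 and -0.96 in repeat 2. PRP3, a proline-rich protein of root hair walls that is also 1 of the root markers, changed by -0.90 in repeat 1 and -0.54 in repeat 2. The 6 members of ubiquitin ligase and F-box families had a median of -0.93. AT5G47610, a RING protein, was at 94.3, 91.9 and 88.4 FPKM without and 44.7, 57.6 and 58.8 with flg22 in repeat 1, and at 109, 86.5 and 102.6 without and 28.2, 28.6 and 41.4 with it in repeat 2, without overlap. RMA2, a RING protein of the endoplasmic reticulum membrane, was at 48.9, 56.3 and 68.7 FPKM without and 35.95, 40.2 and 42.9 with flg22 in repeat 1, and at 25.2, 17.9 and 30.9 without and 10.7, 7.38 and 7.18 with it in repeat 2, with every repeat 2 value without flg22 below every repeat 1 value with it.

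Among the 33 genes of other or unknown function is AT5G66053, which has the highest FPKM of the members and no known role. By estimated reads without flg22, SEN1 (7848) and RPT2 (8578) stood above its 4862, and its annotated transcript is 147 nt long. It was at 962, 843 and 1070.1 FPKM without and 614, 568 and 441 with flg22 in repeat 1, and at 6716, 5244 and 6493 without and 4544, 1920.2 and 3502 with it in repeat 2. The repeat 2 libraries held several times the level of repeat 1 whatever the treatment. AT5G03230, annotated as a senescence regulator, was at 32.7, 31.96 and 38.9 FPKM without and 22.1, 22.9 and 22.7 with flg22 in repeat 1, and at 32.1, 31.1 and 30.9 without and 8.02, 3.95 and 6.38 with it in repeat 2. AT3G26510, with a PB1 domain annotation, was at 194, 234 and 296 FPKM without and 138, 158 and 182 with flg22 in repeat 1, and at 156, 148 and 208 without and 61.6, 45.9 and 50.8 with it in repeat 2. AT2G25200, AT3G13980 and AT1G71970, with DUF868, SKI/DACH-domain and no functional annotation, changed by -1.10, -1.06 and -1.02 in the mean. AT5G19190 changed by -0.39 in repeat 1 and -1.40 in repeat 2, with a lowest, median and highest of 217, 307 and 410.2 FPKM without and 129, 164 and 192 with flg22. BAG2, a co-chaperone, was at 13.5, 12.02 and 13.9 FPKM without and 7.59, 8.27 and 8.06 with flg22 in repeat 1, and at 15.9, 15.4 and 15.3 without and 8.39, 8.35 and 7.92 with it in repeat 2. Its SD over the pairs was 0.14, the second smallest among the members, and the 2 noncoding RNAs AT1G05562 and AT1G76892 changed by -0.75 and -0.74.

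The size of the change differed between the repeats. The members' median change was -0.53 in repeat 1 and -1.14 in repeat 2, and 93 of the 100 had the lower mean in repeat 2, against 48.2% of genes at the level filter and 66.9% of the other 1903 genes lower in all 6 pairs. In 66 members all 3 repeat 2 pairs lay below all 3 repeat 1 pairs, beside 14.3% of genes at the level filter and 20.9% of the other 1903. This contrast between repeats did not rank the genes, but ranking by a mean of 6 admits genes with a large decline in 1 repeat. That bears on these counts and on the test that follows. In a limma fit with a mean for each group and terms for repeat and for repeat by flg22, 45 members had a response lower in repeat 2 at an adjusted p under 0.05 and 0 had a higher one. Over all 20753 genes 2.72% were called lower and 7.69% higher. The error of this test comes from the 3 genotypes within each repeat, and each repeat is a single experiment. Leaving out 1 library at a time gave 32 to 47 members.

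**Figure D3:**
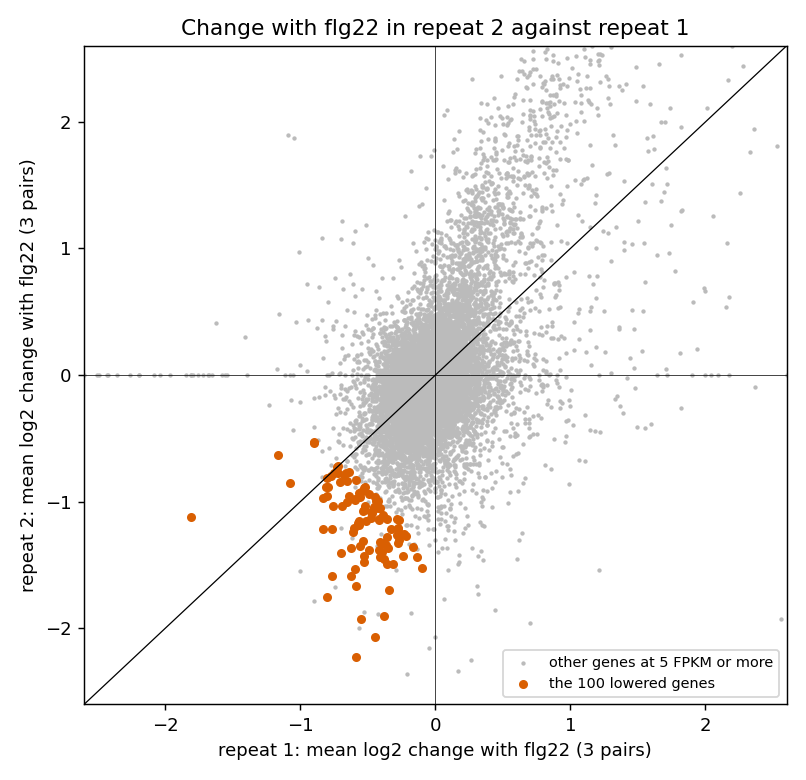
Mean log2 change with flg22 over the 3 pairs of repeat 2 (vertical) against that of repeat 1 (horizontal) for the 100 genes (orange) and the other genes at 5 FPKM or more (grey), with the line of equal change. The orange points lie mostly under the line, 93 of 100, and 339 of 14868 genes, none of them a member, fall outside the axes, which stop at 2.6 on either side of 0.

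Of the 15 light and greening genes, 12 passed the test of the difference between repeats, beside 2.72% of all genes called lower. The test uses the same pair values that chose and ranked the genes. A large decline in 1 repeat helped a gene to enter, so the counts and p-values below are a description. BBX14 had a difference of -1.52 (SE 0.13, adjusted p = 0.000178), the smallest adjusted p among the members. GLK2 had -0.94 (SE 0.10, adjusted p = 0.000535), CGA1 -1.18 (SE 0.16, adjusted p = 0.00232), PKS1 -1.19 (SE 0.18, adjusted p = 0.0041) and RPT2 -0.72 (SE 0.11, adjusted p = 0.00465). COL2 was not past the test, with changes of -0.69 in repeat 1 and -1.04 in repeat 2. Among the other roles 5 of 15 growth regulators passed, 8 of 19 metabolic genes, 2 of 8 wall genes, 3 of 6 ligase and F-box genes, 2 of 4 noncoding RNAs and 13 of 33 others. HBI1 differed by -1.42 (SE 0.17, adjusted p = 0.00105), NCED4 by -1.38 (SE 0.15, adjusted p = 0.000561) and AT5G03230 by -1.64 (SE 0.23, adjusted p = 0.00237). These are limma estimates with Benjamini-Hochberg adjustment over all genes tested, and the members' median difference was -0.63.

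Without flg22, 30 members were higher and 26 lower in repeat 2 than in repeat 1 at an adjusted p under 0.05, where 22.0% and 20.7% of all genes were called. Both counts of members lie near these shares, and nothing is read from them. The shares cover all genes tested, low ones included, whereas the members were held to a mean of 5 FPKM without flg22. COL2 was lower in repeat 2, with a difference of -1.61 (SE 0.09, adjusted p = 3.1e-05), as were COL1 at -0.79 (SE 0.09, adjusted p = 0.000462), BBX14 at -0.87 (SE 0.09, adjusted p = 0.000294) and RVE1 at -1.02 (SE 0.10, adjusted p = 0.000248), all from the limma fit. In the other direction AT5G66053 was higher by 2.68 (SE 0.23, adjusted p = 0.000399), NCED4 by 1.05 (SE 0.10, adjusted p = 0.000256), FRO7 by 1.27 (SE 0.16, adjusted p = 0.000737) and HBI1 by 0.92 (SE 0.12, adjusted p = 0.000747) in the same fit. Members with a strong decline in repeat 2 thus include genes that started higher there, such as NCED4 and HBI1, and genes that started lower, such as BBX14 and RVE1.

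The lines were compared for these levels and for the response. The rule asked for a decline in every pair of every line, so a gene whose decline is lost in a line could not be a member. Similar declines in the lines are therefore partly set by that choice, and genes whose response depends on ASR3 may lie outside the list. The members' median change was -0.81 in WT, -0.83 in asr3-1 and -0.81 in OX9. The largest decline fell in WT for 28 members, in asr3-1 for 37 and in OX9 for 35. Members called between asr3-1 and WT numbered 0 without and 0 with flg22, where 0.0% of all genes were called in either direction. Between OX9 and WT the count was 0 in both conditions as well, with 0.00964% of all genes called higher without flg22 and 0.00482% with it, among them ASR3, and 0.0% lower. For the difference of response from WT, 0 members were called in either line, beside 0.0% of all genes. At an unadjusted p under 0.05 the counts were 0 for asr3-1 and 0 for OX9 without flg22, 0 and 1 with it. They were 0 and 0 for the difference of response. Over all 20753 genes tested the counts were 81 and 173, 166 and 164, and 80 and 95 in the same order. The members' median SE was 0.49 for a comparison of lines and 0.69 for a difference of response, in a fit without the repeat. With the repeat as a block it was 0.31 and 0.44, and again 0 members were called. Differences several times the size of these errors could be missed with 2 libraries a group. In the fit without the repeat, the flg22 change of SQP1 in asr3-1, -1.18 (SE 0.23, limma adjusted p = 0.113), did not pass.

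Differences between lines ran from -0.53 to 0.38 for asr3-1 and from -0.63 to 1.20 for OX9 without flg22, and from -1.10 to 0.70 and from -0.80 to 1.13 with it. The repeat as a term together with repeat by flg22, a model added after seeing the data, lowered the median SE to 0.16 and 0.23 and called 0 members. At an unadjusted p under 0.05 it gave 3, 9, 7, 13, 2 and 7 members in the 6 comparisons, in the order used above. The count over all genes is not given for that model, so these numbers cannot tell whether the members differ from other genes, and nothing is read from them. The genes named next had the lowest p of the members there, for OX9 against WT without and with flg22. Neither passed after adjustment. AT1G78450, a SOUL heme-binding protein, was at 8.45, 10.7 and 20.1 FPKM without and 7.72, 9.18 and 13.8 with flg22 in repeat 1, and at 4.84, 5.73 and 12.7 without and 2.104, 2.09 and 2.59 with it in repeat 2. Its estimate for OX9 against WT without flg22 was 1.20 (SE 0.15, limma adjusted p = 0.179) in that model, and without flg22 OX9 exceeded both other lines in each repeat. AT3G13980, at 21.2, 21.9 and 13.2 FPKM without and 14.7, 12.96 and 8.56 with flg22 in repeat 1, and at 41.5, 37.5 and 29.2 without and 14.6, 11.8 and 9.25 with it in repeat 2, gave -0.66 (SE 0.12, limma adjusted p = 0.173) for OX9 against WT with flg22, with OX9 the lowest of the lines with flg22 in each repeat.

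How far the list holds in values that did not choose it was read by repeating the rule without some pairs. The 100 genes chosen without WT had a median change of -0.72 in the WT pairs, and 82 were below 0 in both, against 32.7% of genes at the level filter. Without asr3-1 the median was -0.76 and 80 were below 0, against 36.3%, and without OX9 it was -0.70 with 87, against 36.2%. The left-out genotype shares its repeats with the others. When a whole repeat was left out the values were smaller. The 100 genes chosen in repeat 2 alone had a median of -1.34 there and -0.21 in repeat 1, where 49 were below 0 in all 3 pairs, against 27.7%. Those chosen in repeat 1 alone had -0.80 there and -0.17 in repeat 2, with 39 below 0, against 32.7%. Of the latter, 11 were listed at 0 in all 6 libraries of repeat 2, and the other 89 had a median of -0.21.

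**Figure D4:**
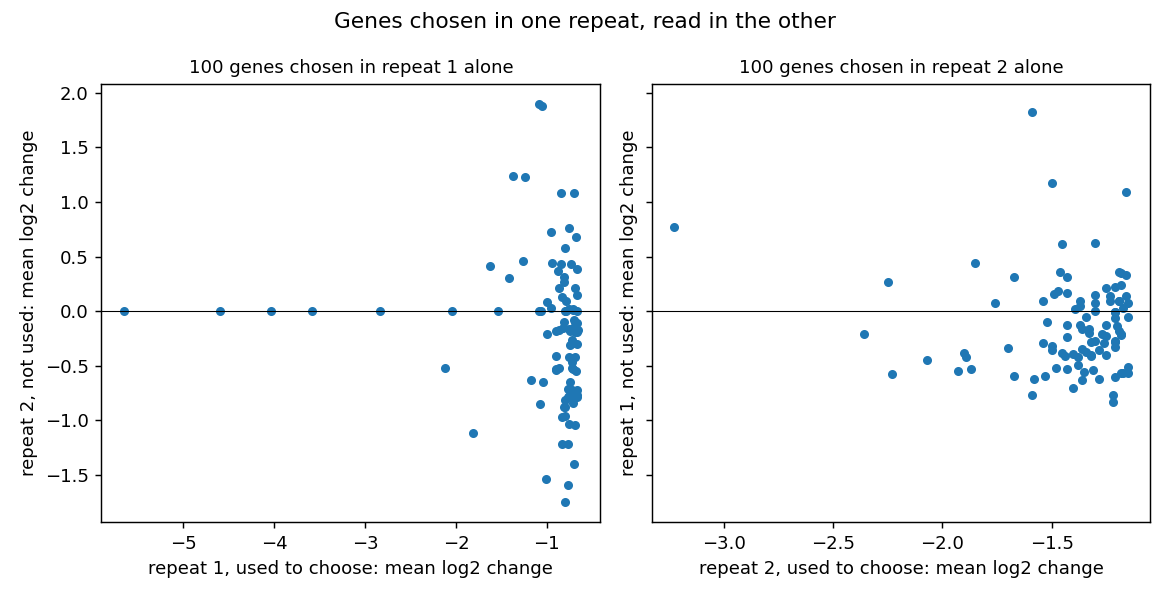
Mean log2 change with flg22 in the repeat that was not used (vertical) against that in the repeat used to choose the genes (horizontal), for 100 genes chosen in repeat 1 (left) and 100 in repeat 2 (right). Most points lie nearer to 0 on the vertical axis, with medians of -0.17 and -0.21, and the row of points at 0 on the left holds genes listed at 0 throughout repeat 2.

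Gene structure, which the rule did not use, was compared without a test. Of the 99 annotated members, 37 have a single exon, 37.4% against 14.5% of genes at the level filter. Their median transcript length was 1374 nt against 1672, and their median exon number 2 against 5. The members' higher median level stands beside these features, and its part in them was not tested. Another annotated gene overlaps 27 members, in 22 cases on the opposite strand, and the strand of the reads is not stated. These members could hold reads of an overlapping neighbour. Among them are BBX14, COL1, COL2, PIL5, PKS1, CH1, RVE1, CYP81D11, NIP6;1 and AT5G66053.

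Promoter motifs were counted from 250 bases before to 50 after the start in RefSeq TAIR10.1, on both strands. The site II element, TGGGCC, found in front of many ribosomal and cell growth genes, was in 4.0% of the member promoters, against 20.1% at the level filter. The telo-box, AAACCCTA, was in 1.0% against 5.5%, and CGCGT, the CAMTA site, in 3.0% against 9.4%. The W-box core TTGAC, the site of WRKY factors, was in 41.4% against 50.4%. In the other direction the ABRE core ACGTGTC was in 11.1% against 5.0%, the G-box CACGTG in 12.1% against 8.9%, GATAAG in 23.2% against 15.6% and TATAAA in 60.6% against 51.2%. The ABRE core overlaps the G-box in some promoters, as in RVE1. The 12 members with a G-box include CYP81D11, AT3G13980, FRO6, FRO7, RVE1, CH1 and CYCP2;1, and the 11 with an ABRE core include ACR9. The other motifs searched were TGTCTC and TGTCGG (auxin response elements 1 and 2), GGTTAA (GT-box), GCCGCC (GCC box), CGTGTG (BRRE, the brassinosteroid response element), AATNATT (HD-ZIP site), AACCTA (MYB site), GAANNTTC (heat shock element), GGNCCCAC (TCP site) and TTTCCCGC (E2F site). Their shares are in the plot of motifs. A match is a description of the letters, not evidence that a factor binds there.

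**Figure D5:**
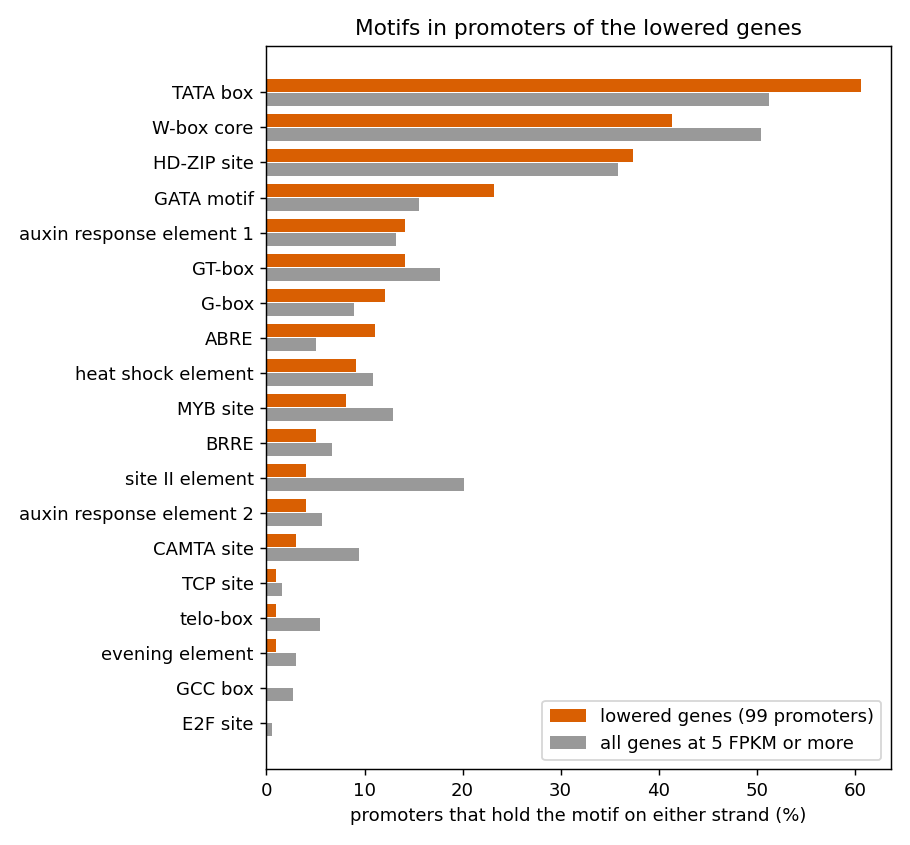
Share of promoters that hold each of 19 motifs on either strand, in percent, for the 99 lowered genes with a promoter (orange) and for all genes at 5 FPKM or more (grey). The widest gap is that of the site II element, 4.0% against 20.1%.

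Gene groups around the members were read from 36 lists of symbols. Of 64 light signalling and B-box genes at the level filter, 27 were lower in all 6 pairs and 7 are members. For the clock these numbers were 14 of 31 with 1 member (RVE1), for aquaporins 15 of 26 with 1 (NIP6;1) and for arabinogalactan proteins 13 of 38 with 1 (AGP17), against 13.5% of all genes at the filter. By the pooled limma test, 1 light signalling gene passed in each direction of 73 tested, and 0 of 29 aquaporins passed in either. Of 34 clock genes tested 1 passed as higher and 0 as lower, and of 42 arabinogalactan protein genes 2 and 0. A pooled change below 0 was found in 52.9% of the clock genes tested, against 56.4% of all genes tested. Cytosolic ribosomal proteins had 3 of 56 lower in all 6 pairs and 0 members, with a median of 0.00. Resting immunity genes and TIR-NBS receptors had a median of 0.27, 2 of 27 lower in all pairs and 0 members.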

How the data were processed

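Per the file headers the authors deposited FPKM. The table of all 12 libraries was used, after a comparison with the files per sample (largest gap 5e-05). Tools listed by the submitters' processing notes, with no roles, are Cuffdiff 2.2.1, TopHat2 2.0.12, cutadapt 1.0 and bcl2fastq 1.8.4, with TAIR10 as the build. Reads were single ends of 100 nt per the series' design text. Of 34066 lines, 693 had no identifier and 88 identifiers stood on more than 1 line (176 lines); all were left out. Names, structures and sequences came from RefSeq TAIR10.1, whose annotation holds 99 of the 100 members.

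Tests ran on log2(FPKM + 1) in limma 3.58.1 under R 4.3.3, for the 20753 genes that reached 1 FPKM in 2 or more libraries, with a mean per group, a variance trend and robust empirical Bayes, 2-sided p-values and Benjamini-Hochberg adjustment over all genes tested within a comparison. The fits were tested on simulated data. A fold change on this scale understates that of low genes. Same-numbered libraries pair, since the design text makes the number the repeat and their deviations from group means correlated at 0.57 to 0.81 over 15 pairs of groups. Depth was estimated from the lowest values of genes of known length, searching 3000000 to 25000000 reads. FPKM depends on transcript lengths that the files do not give, so whole reads were not recovered and no count test was run.

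The members, gene lists, motifs and tests were chosen with earlier results of these data known. Named genes are ASR3, the 15 lowest ranks, the 5 highest by FPKM, members of gene lists, microRNAs and members past a test between repeats. Also named are the most even and most uneven members, the edge of the list and 10 further genes with a symbol. Other members named were chosen after their values were seen. The alternatives were other pseudocounts and filters, quantile normalization, the replicate block, single libraries left out, and changes to the rule.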

Additional observations from a re-analysis of the deposited data

Results flagged for a closer look

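In 45 of the 100 lowered genes the change with flg22 was lower in repeat 2 by the limma test of the difference between repeats. That test called 2.72% of all genes lower and 7.69% higher. The genes were ranked by the mean of the 6 pairs, which admits genes with a large decline in 1 repeat. This bears on the count of 45 and on the values below. Of the 45, the 15 with the smallest adjusted p are given here. Each value is the change in repeat 2 minus that in repeat 1 on the log2 scale. BBX14 had -1.52, AT5G19190 -1.01 and GLK2 -0.94. NCED4 had -1.38, HBI1 -1.42 and AT3G22968 -1.03. AT2G41250, a haloacid dehalogenase-like hydrolase, had -0.77, and AT1G07280, a tetratricopeptide repeat protein, had -1.19. CGA1 had -1.18, AT5G03230 -1.64, AT3G13980 -0.94 and RVE1 -0.98. PKS1 had -1.19, BBX15 -1.01 and RPT2 -0.72. All 15 were lower in repeat 2. In the same libraries MT1A took 1.46 to 1.78% of the FPKM in repeat 1 and 10.17 to 16.07% in repeat 2, and its part in these differences was not tested. Repeat and all else that changed between the 2 experiments cannot be told apart.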

How the results depend on the processing

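The 6 comparisons between lines called 0 members under every setting run, the repeat as a block included. For the rule's own contrast, pooled over genotypes, the count of members called was 29 with quantile normalization (0.935% of all genes called lower) and 81 with the replicate block (5.69%), and ran from 2 (without repeat 2 of asr3-1 or of OX9, no flg22) to 29 (without repeat 1 of asr3-1, flg22) when 1 library was left out, where 0.0193 to 0.4% of all genes were called lower. With the replicate block 3 members were called in WT (0.0434%) and 8 in asr3-1 (0.222%). The pairing by repeat number changed no other call. Leaving out 1 library gave 32 to 47 members for the difference of response between repeats and 40 to 59 for the level without flg22. With all 12 libraries the first comparison called 2.72% of all genes lower and 7.69% higher. The second called 20.7% lower and 22.0% higher. Of the 100 members, 63 were kept with a level of 20 FPKM or more, which 37 of them do not reach, and 41 when ranked by the pair nearest 0. Without repeat 1 46 were kept and without repeat 2 25. The members' median change was -1.19 in asr3-1 repeat 2 alone, -0.43 in OX9 repeat 1 alone and -1.21 in OX9 repeat 2 alone. The cause was not tested. FPKM without counts gives no counting intervals, 17 members rest on under 100 estimated reads, and the 12 libraries come from only 2 repeats.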
